A study of Homo sapiens with 58 samples.

Results

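Chromatin accessibility was examined at the loci of 8 genes of the melanocyte lineage, MITF, KIT, EDNRB, TYR, TYRP1, DCT, PMEL and MLANA, in human cranial neural crest cells (CNCCs) in which the level of the transcription factor SOX9 was lowered in steps. The units are regulatory elements (REs), the open-chromatin regions that form the rows of the deposited ATAC-seq count table (hg38). An RE was taken as a member when its midpoint lay inside one of the 8 genes or within 100 kb of a GENCODE v44 start site of that gene, which gave 101 of the 151457 REs. The MITF locus held 22 REs, KIT 7, EDNRB 17, TYR 6, TYRP1 10, DCT 8, PMEL 18 and MLANA 13. The rule used position alone, and the 8 genes were chosen with earlier results of these data known. REs are named here by gene and by the distance of their midpoint from the start of its canonical transcript, with positive distances running in the direction of transcription.

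Melanocytes arise from the neural crest, the same embryonic population that gives rise to cartilage, bone and connective tissue of the face. MITF is the transcription factor that directs the melanocyte programme, and KIT and EDNRB are receptors with which its precursors respond to KIT ligand and endothelin-3. TYR, TYRP1 and DCT are the enzymes of melanin synthesis, PMEL forms the fibrils of the melanosome on which melanin is laid down, and MLANA is a membrane protein of the melanosome. SOX9 and its relative SOX10 are factors of the SOX family, which bind short sequences around an ACAANG core.

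All samples were CNCCs derived from the H9 human embryonic stem cell line. SOX9-tagged cells carried FKBP12-F36V, mNeonGreen and V5 on both SOX9 alleles, so that the degrader dTAGV-1 removes SOX9, and they came from 2 edited clones, S9CC13 and S9CC47. WT cells carried no tag and so hold no FKBP12-F36V for dTAGV-1 to act on. SOX9-tagged cells received 0, 0.5, 1.6, 5, 16 or 500 nM dTAGV-1 for 48 h, 7 samples each, 4 from S9CC13 and 3 from S9CC47, and the labels give their SOX9 levels as 100, 77.9, 51.7, 25.8, 8.14 and 0.95% of the level without dTAGV-1. WT cells received 0 or 500 nM for 48 h, 2 samples each. A time course held vehicle, 3 h and 24 h at 500 nM in SOX9-tagged cells, labelled S9CC13, and in WT cells, 2 samples each. Vehicle was given for 24 h, and the 3 h samples received vehicle first, for the rest of the 24 h. The replicates were separate differentiations or clones, not separate donors.

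The total count per sample ran from 22.9 to 81.0 M, and the mean count of a member at 0 nM ran from 25.7 to 4630 with a median of 84.7, so precision was lowest at the weakest REs. In 1 differentiation of S9CC13 the concentration labels of the 0 and 0.5 nM samples contradicted their titles and labelled SOX9 levels, and the titles were followed. Without that differentiation 19 members instead of 26 passed the threshold at 500 nM. In 1 differentiation of the time course the count table named clone S9CC47 where the labels gave S9CC13. All 10 cranial neural crest markers had an RE within 1000 bp of a start site, with a summed level of 520.6 to 747.0 CPM (counts scaled to a common library size) at 0 nM and 569.3 to 722.4 at 500 nM. Of 4 pluripotency markers, NANOG and ZFP42 had none, while DPPA4 stood at a mean of 12.4 CPM and POU5F1 at 1.28 CPM at 0 nM, and the list summed to 11.1 to 18.9 CPM at 0 nM and 10.1 to 16.4 at 500 nM. All 4 neural progenitor markers had such an RE, with a sum of 77.5 to 107.6 CPM at 0 nM, of which PAX6 gave a mean of 52.9, and of 87.6 to 115.1 CPM at 500 nM. The 5 markers of glia and Schwann cell precursors summed to 20.3 to 26.9 CPM at 0 nM and 18.3 to 26.3 at 500 nM. The part of such cells in the results was not tested.

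Of the 8 melanocyte genes, MITF, KIT, TYRP1 and PMEL had an RE within 1000 bp of a GENCODE start site, and EDNRB, TYR, DCT and MLANA had none, although an RE overlapped a distal RefSeq start of DCT. The only such RE of TYRP1 lay in a coding exon, at a mean of 1.86 CPM at 0 nM. At PMEL, the REs PMEL −0.2 kb and PMEL −0.7 kb also lie at the start of CDK2. PMEL −7.9 kb, the RE of that locus with the highest CPM, also lies at the start of RAB5B. The 8 loci are those of melanocyte genes in CNCC cultures with open chromatin at neural crest markers, not in melanocyte cultures. Whether some of the cells were melanocyte precursors was not tested. In bulk samples, fewer cells with an open RE and lower accessibility per cell cannot be told apart.

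The central 200 bases of 6 REs are shown first. Of the 10 REs with the largest changes at 500 nM that went the same way in 7 of 7 replicates, 3 hold the core ACAANG in this window and 7 do not. All 3 with the core are shown, together with 3 that lack it, MITF −56.0 kb and MLANA −11.2 kb, which had the largest changes after EDNRB +65.0 kb and TYR +131.9 kb, and EDNRB +61.0 kb, the neighbour of EDNRB +65.0 kb. Capitals mark ACAANG on either strand, and all are written along the plus strand of hg38. EDNRB +65.0 kb (window chr13:77853735-77853934) holds the form ACAAAG at 2 places, MITF +261.5 kb (chr3:70000897-70001096) holds ACAATG at 2 places, and TYR +131.9 kb (chr11:89309658-89309857) holds ACAANG at 1 place. EDNRB +61.0 kb (chr13:77857714-77857913) lies 3979 bp from EDNRB +65.0 kb and gained accessibility. MITF −56.0 kb (chr3:69683358-69683557) lost it, and MLANA −11.2 kb (chr9:5879562-5879761) gained it.
EDNRB +65.0 kb: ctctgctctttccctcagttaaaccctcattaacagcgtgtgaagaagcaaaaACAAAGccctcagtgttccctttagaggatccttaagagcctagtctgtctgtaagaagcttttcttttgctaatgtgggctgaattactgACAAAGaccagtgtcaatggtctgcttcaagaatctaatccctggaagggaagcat
MITF +261.5 kb: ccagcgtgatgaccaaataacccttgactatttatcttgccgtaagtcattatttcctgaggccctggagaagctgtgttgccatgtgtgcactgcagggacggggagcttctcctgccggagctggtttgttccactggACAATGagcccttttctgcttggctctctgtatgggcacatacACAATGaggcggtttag
TYR +131.9 kb: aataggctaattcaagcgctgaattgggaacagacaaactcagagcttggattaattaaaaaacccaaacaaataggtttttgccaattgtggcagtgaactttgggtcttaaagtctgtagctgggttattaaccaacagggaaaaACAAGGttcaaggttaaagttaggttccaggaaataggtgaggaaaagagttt
EDNRB +61.0 kb: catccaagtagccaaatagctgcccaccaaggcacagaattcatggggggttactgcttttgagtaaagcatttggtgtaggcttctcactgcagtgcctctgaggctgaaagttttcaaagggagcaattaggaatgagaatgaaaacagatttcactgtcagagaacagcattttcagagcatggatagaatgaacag
MITF −56.0 kb: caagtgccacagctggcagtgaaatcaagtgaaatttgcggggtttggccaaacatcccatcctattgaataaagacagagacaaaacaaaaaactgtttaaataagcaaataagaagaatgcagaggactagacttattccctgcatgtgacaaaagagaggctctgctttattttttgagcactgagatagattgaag
MLANA −11.2 kb: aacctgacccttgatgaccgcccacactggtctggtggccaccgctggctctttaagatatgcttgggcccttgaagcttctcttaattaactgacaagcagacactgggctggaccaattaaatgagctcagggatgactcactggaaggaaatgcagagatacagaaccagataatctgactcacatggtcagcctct

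Over both strands of these central windows, ACAANG occurred in 36 of the 101 members (35.6%) against 31.2% of all REs. Its forms ACAAAG, at 12 members (11.9%) against 14.3%, and ACAATG, at 9 members (8.91%) against 8.26%, are counted within it. CATGTG, a sequence bound by MITF and its relatives, occurred in 19 members (18.8%) against 16.4%, and CACGTG, the other such sequence, in 0 members against 3.42%. The member shares for ACAANG and CATGTG thus lay near those of all REs. Among the 10 members that were lower at 500 nM, 5 held ACAANG, and among the 16 that were higher, 2 did. Among the 7 that were lower at 3 h, 4 held it. A match is a description of the letters only.

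RefSeq (GRCh38.p14) gave 11 start sites for 7 of the 8 genes. Of the 250 bases before each, 3 were overlapped by a member RE, namely those of the first MITF start, KIT and a distal start of DCT. The stretches before the other MITF starts (chr3:69763561-69763810 and chr3:69936342-69936591) were overlapped by none. The MITF stretch (chr3:69739214-69739463, plus strand) lies under the most accessible RE of its locus and holds ACAATG once, in capitals. The stretch before TYR (chr11:89177625-89177874, plus strand) is shown beside it as one of 3 with no RE that hold CATGTG at 2 places, in capitals, with those before TYRP1 and the canonical start of DCT, and it was chosen after its motifs were seen. Over 34943 RefSeq promoter entries of the same length, ACAANG occurred in 30.9%, ACAATG in 9.3% and CATGTG in 9.45%.
MITF start: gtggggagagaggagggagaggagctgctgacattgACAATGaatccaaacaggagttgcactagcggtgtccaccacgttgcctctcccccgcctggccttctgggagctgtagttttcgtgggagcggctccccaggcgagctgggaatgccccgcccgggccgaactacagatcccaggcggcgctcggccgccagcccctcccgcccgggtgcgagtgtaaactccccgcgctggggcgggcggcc
TYR start: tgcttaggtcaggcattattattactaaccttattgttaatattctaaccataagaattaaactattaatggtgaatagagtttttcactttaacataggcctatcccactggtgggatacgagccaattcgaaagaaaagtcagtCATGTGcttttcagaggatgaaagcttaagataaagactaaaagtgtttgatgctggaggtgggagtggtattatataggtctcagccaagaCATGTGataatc

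At 500 nM for 48 h, 26 of the 101 members passed the threshold (edgeR quasi-likelihood test, Benjamini-Hochberg adjusted p under 0.05 over all 151457 REs), 10 lower and 16 higher. Of all REs 24.1% passed, 13.9% lower and 10.2% higher, so the share of members that changed lay near the background. All 101 were tested, since no filter on low counts was used. The median log2 fold change of the members was 0.065 against 0.018 over all REs. Across this comparison, the other doses, the time course, the WT samples and the genotype by treatment terms, 36 members passed in at least 1 and 65 in none. The share of all REs that passed in at least 1 was not computed, so these counts have no background. Of the 26, 17 moved the same way in 7 of 7 replicates, and 16 passed in each of the 7 fits that left out 1 replicate.

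The calls were unevenly placed among the loci. EDNRB held 2 lower and 7 higher REs of 17, MITF 3 lower and 2 higher of 22, TYR 2 lower and 0 higher of 6, and MLANA 0 lower and 3 higher of 13. TYRP1 held 0 lower and 2 higher of 10, KIT 1 and 1 of 7, DCT 1 and 1 of 8, and PMEL 1 and 0 of 18. Of the 18 members at the start of another coding gene, 14 lay at the PMEL locus, and 2 of the 18 changed. Of the 11 members within 1000 bp of a start of one of the 8 genes, 1 changed, at KIT. The share called among all REs at start sites was not computed, so these counts cannot be set against start sites elsewhere. Differences in the share called between loci were not tested.

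**Figure D1:**
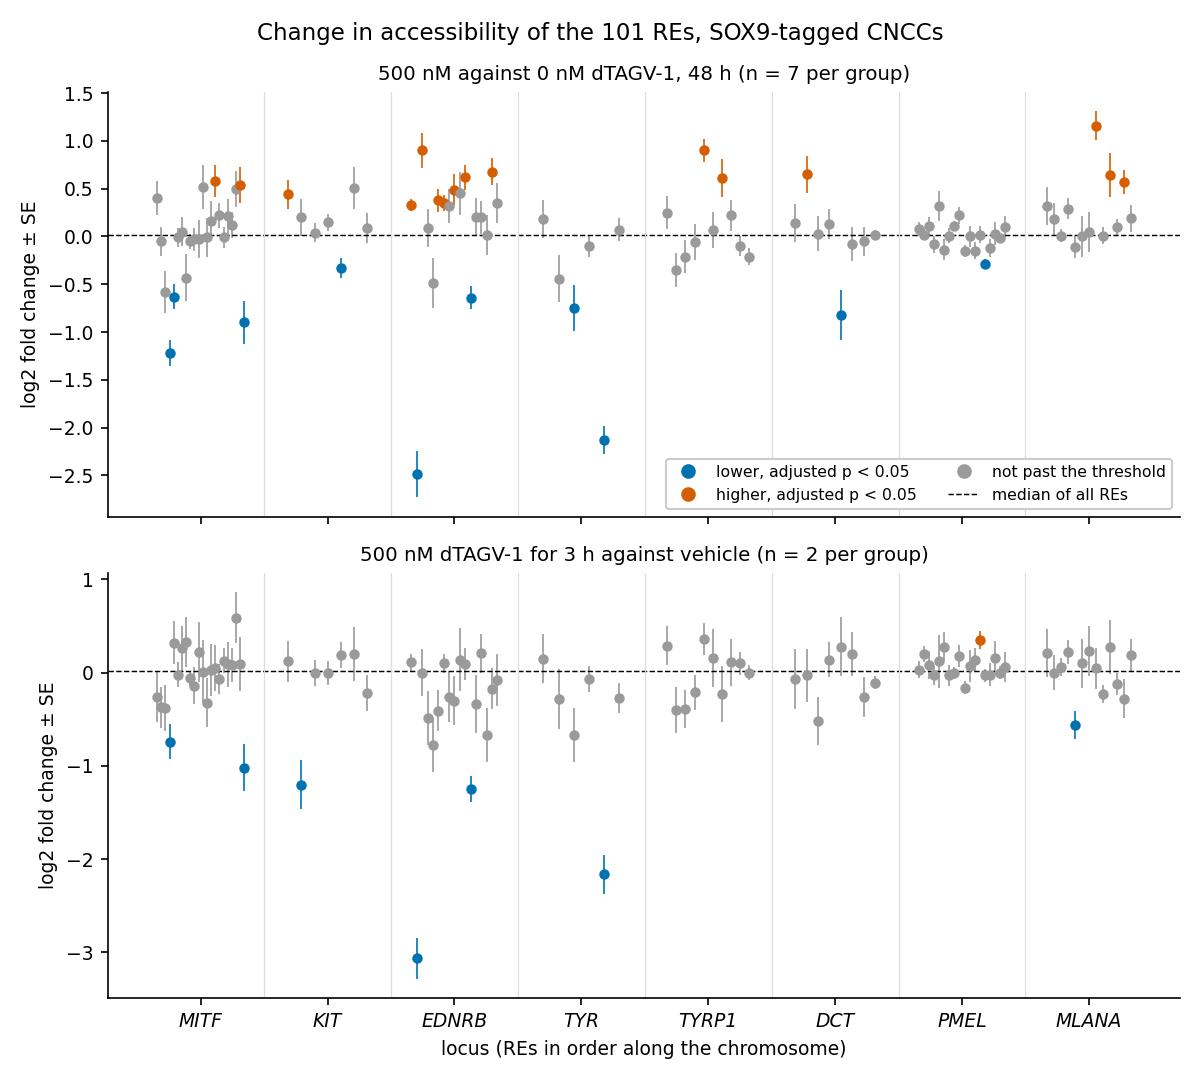
Log2 fold change with its standard error (y axis) of each of the 101 REs, ordered along the chromosome within each locus (x axis), for 500 against 0 nM dTAGV-1 at 48 h (upper panel) and for 3 h against vehicle (lower panel) in SOX9-tagged CNCCs. Blue points passed the threshold and were lower, orange points passed and were higher, and grey points did not pass. EDNRB +65.0 kb and TYR +131.9 kb lie below the rest in both panels, and the 16 REs that were higher at 48 h are grey at 3 h.

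MITF, the transcription factor that directs melanocyte development, kept its most accessible RE within the spread between replicates, while REs far upstream and downstream of it lost accessibility. The RE at its first start site, MITF −0.1 kb (chr3:69739090-69739590, UTR exon), had a lowest, median and highest level of 18.9, 24.1 and 30.3 CPM at 0 nM and of 15.0, 24.6 and 29.9 CPM at 500 nM. The groups overlapped over nearly their whole range, and the log2 fold change was −0.05 (SE 0.08, adjusted p = 0.73). The adjacent MITF +0.4 kb, in the first coding exon, changed by −0.03 (adjusted p = 0.88). The RefSeq starts further inside MITF had no member RE over the stretch before them, so these values describe the first start alone. Which start the cells used was not tested.

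MITF −56.0 kb (chr3:69683048-69683867, intergenic) was the RE of this locus with the lowest adjusted p. Its lowest, median and highest levels were 1.58, 3.11 and 9.28 CPM at 0 nM and 0.885, 1.43 and 3.13 CPM at 500 nM. The ranges overlapped because replicates differed widely at the start, but the RE was lower in 7 of 7 replicates, by −1.22 (SE 0.14, adjusted p = 1.6e-07). Its neighbour MITF −52.1 kb, 3871 bp away, was lower by −0.63 (SE 0.13, adjusted p = 0.00073) and in 6 of 7 replicates.

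MITF +261.5 kb (chr3:70000747-70001247) lies downstream of MITF, inside the lncRNA gene SAMMSON, which is known from melanoma. Its levels were 0.669, 0.893 and 2.0 CPM (lowest, median, highest) at 0 nM and 0.348, 0.457 and 1.07 CPM at 500 nM. It was lower in 7 of 7 replicates, by −0.90 (SE 0.23, adjusted p = 0.0055), although the groups overlapped. In the opposite direction, MITF +99.0 kb, in an exon of MITF, rose by 0.58 (SE 0.17, adjusted p = 0.014), a call that was lost without replicate R14 of S9CC13 (0.50), and MITF +236.8 kb by 0.54 (SE 0.19, adjusted p = 0.034), which passed in 3 of 7 fits that left out 1 replicate.

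KIT is the receptor tyrosine kinase on which melanoblasts depend for survival and migration, and its start site stayed open. KIT 0.0 kb (chr4:54657700-54658200, coding exon) had levels of 7.01, 9.25 and 16.4 CPM (lowest, median, highest) at 0 nM and 7.68, 10.5 and 15.4 CPM at 500 nM. The groups overlapped throughout, and the log2 fold change was 0.04 (SE 0.10, adjusted p = 0.82). KIT +0.9 kb, the most accessible RE of the locus, changed by 0.15 (adjusted p = 0.26).

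In the first intron, KIT +1.6 kb (chr4:54659324-54659824) went from 6.46, 7.23 and 7.77 CPM (lowest, median, highest) to 5.15, 5.61 and 7.15 CPM. The groups overlapped, all 7 replicates were lower, and the change was −0.33 (SE 0.10, adjusted p = 0.017). Upstream, KIT −70.3 kb rose by 0.44 (SE 0.15, adjusted p = 0.035). Each of these calls held in 3 of 7 fits that left out 1 replicate.

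EDNRB, the endothelin receptor of melanoblasts and enteric neural crest, had the largest loss and the most gains. EDNRB +65.0 kb (chr13:77853585-77854085, intergenic) had levels of 1.39, 2.33 and 3.86 CPM (lowest, median, highest) at 0 nM and 0.25, 0.388 and 1.09 CPM at 500 nM. The groups did not overlap, and the log2 fold change was −2.49 (SE 0.24, adjusted p = 1.6e-08). The highest of the 500 nM samples was replicate R5 of S9CC47, without which the change was −2.79.

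The second RE that was lower, EDNRB −33.8 kb (chr13:77952215-77953137), lies in an intron of EDNRB and in the antisense-named lncRNA gene OBI1-AS1. It went from 4.91, 9.75 and 14.9 CPM (lowest, median, highest) to 5.05, 6.29 and 7.54 CPM. The treated samples lay within the lower part of the untreated range, and the RE was lower in 6 of 7 replicates, by −0.64 (SE 0.12, adjusted p = 0.00022).

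The 7 REs of the EDNRB locus that were higher spanned both sides of the start site. EDNRB +61.0 kb, next to the RE with the largest loss, went from 0.552, 0.71 and 1.11 CPM (lowest, median, highest) to 0.894, 1.53 and 1.90 CPM. The ranges overlapped slightly, all 7 replicates were higher, and the change was 0.90 (SE 0.18, adjusted p = 0.00045). EDNRB −127.6 kb (chr13:78046177-78046677) went from 1.05, 1.54 and 1.73 CPM to 1.77, 2.30 and 2.88 CPM.

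At EDNRB −127.6 kb the groups did not overlap, and the change was 0.68 (SE 0.14, adjusted p = 0.00068). EDNRB +111.0 kb (chr13:77807423-77808244), the RE of this locus with the highest CPM and inside the lncRNA gene EDNRB-AS1, went from 16.4, 20.2 and 23.2 CPM to 20.7, 24.7 and 28.9 CPM. It was higher in 7 of 7 replicates, by 0.33 (SE 0.06, adjusted p = 0.00038). The other 4 that were higher, EDNRB −12.0, +11.0, +25.6 and +26.1 kb, changed by 0.35 to 0.62, and EDNRB +11.0 kb passed in 3 of 7 fits that left out 1 replicate.

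TYR encodes tyrosinase, the rate-limiting enzyme of melanin synthesis, and both of its calls were lower. TYR +131.9 kb (chr11:89309343-89310173) lies beyond the 3' end of the gene and had the lowest adjusted p of all 101 members. Its levels were 1.71, 3.76 and 6.91 CPM (lowest, median, highest) at 0 nM and 0.27, 1.03 and 1.25 CPM at 500 nM. The groups did not overlap, and the change was −2.13 (SE 0.15, adjusted p = 4.3e-11).

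TYR +50.5 kb, in an intron, was weaker, at 0.42, 0.977 and 1.18 CPM (lowest, median, highest) before and 0.411, 0.509 and 0.833 CPM after. It was lower in 6 of 7 replicates, by −0.75 (SE 0.24, adjusted p = 0.022), and passed in 3 of 7 fits that left out 1 replicate. The most accessible RE of the locus, TYR +116.4 kb, changed by −0.10 (adjusted p = 0.59). The summed level of the 6 REs was 16.7 ± 2.36 CPM untreated and 13.04 ± 1.502 CPM treated (SD, n = 7 each).

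TYRP1, which stabilises tyrosinase and acts in the later steps of the pathway, had gains alone at 48 h. TYRP1 +25.1 kb (chr9:12717862-12719070), downstream of the gene and inside the lncRNA gene LURAP1L-AS1, went from 2.54, 3.11 and 3.61 CPM (lowest, median, highest) to 4.06, 5.85 and 7.67 CPM. The groups did not overlap, and the change was 0.90 (SE 0.12, adjusted p = 2.2e-06). TYRP1 +44.7 kb rose by 0.61 (SE 0.20, adjusted p = 0.031), which passed in 4 of 7 fits that left out 1 replicate, and the RE within TYRP1 at an alternative start, TYRP1 +9.0 kb, changed by −0.06 (adjusted p = 0.88). The RE with the highest CPM, TYRP1 +83.0 kb at the start of LURAP1L, changed by −0.21 (adjusted p = 0.10).

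DCT, the tautomerase of the eumelanin branch, had weak calls. DCT −69.8 kb (chr13:94548876-94550080), which overlaps the distal RefSeq start, held most of the locus' signal, with 52.8, 61.5 and 86.9 CPM (lowest, median, highest) at 0 nM and 48.7, 63.3 and 86.4 CPM at 500 nM. Those ranges coincided, and the change was 0.02 (adjusted p = 0.80). DCT +78.6 kb, in an intron of GPC6, rose by 0.65 (SE 0.19, adjusted p = 0.014), and DCT +59.7 kb was lower, by −0.82 (SE 0.26, adjusted p = 0.023), with levels from 0.259 to 1.86 CPM untreated and 0.267 to 0.856 CPM treated. Without 1 replicate, DCT +59.7 kb passed in 4 of 7 fits.

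At PMEL, the melanosome fibril protein, the locus is shared with many other genes, and its REs changed little. PMEL −7.9 kb, at the start of RAB5B, stood at 105 ± 6.89 CPM untreated and 114 ± 11.5 CPM treated (SD, n = 7 each), a difference with an adjusted p of 0.11, and PMEL −0.7 kb, shared with the start of CDK2, changed by 0.01 (adjusted p = 0.95). PMEL −54.8 kb (chr12:56020629-56021129) lies at the start of IKZF4. It went from 41.6, 49.2 and 54.1 CPM (lowest, median, highest) to 35.1, 39.8 and 45.8 CPM, lower in 7 of 7 replicates by −0.29 (SE 0.05, adjusted p = 0.00016), with overlapping groups.

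The MLANA locus, named for the melanosome membrane protein also known as MART-1, had gains alone at 48 h. MLANA −11.2 kb (chr9:5879412-5879912) lies at an alternative start of ERMP1 and went from 0.773, 0.989 and 3.0 CPM (lowest, median, highest) to 1.62, 2.88 and 8.29 CPM. The groups overlapped because 2 untreated samples were high, but 7 of 7 replicates were higher, by 1.16 (SE 0.15, adjusted p = 2.4e-06). MLANA +58.4 kb rose by 0.57 (SE 0.13, adjusted p = 0.0019) and MLANA +45.5 kb by 0.64 (SE 0.23, adjusted p = 0.043), both in introns of KIAA2026. MLANA +45.5 kb passed in 2 of 7 fits that left out 1 replicate. The RE at the main ERMP1 start, MLANA −57.7 kb, changed by 0.01.

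**Figure D2:**
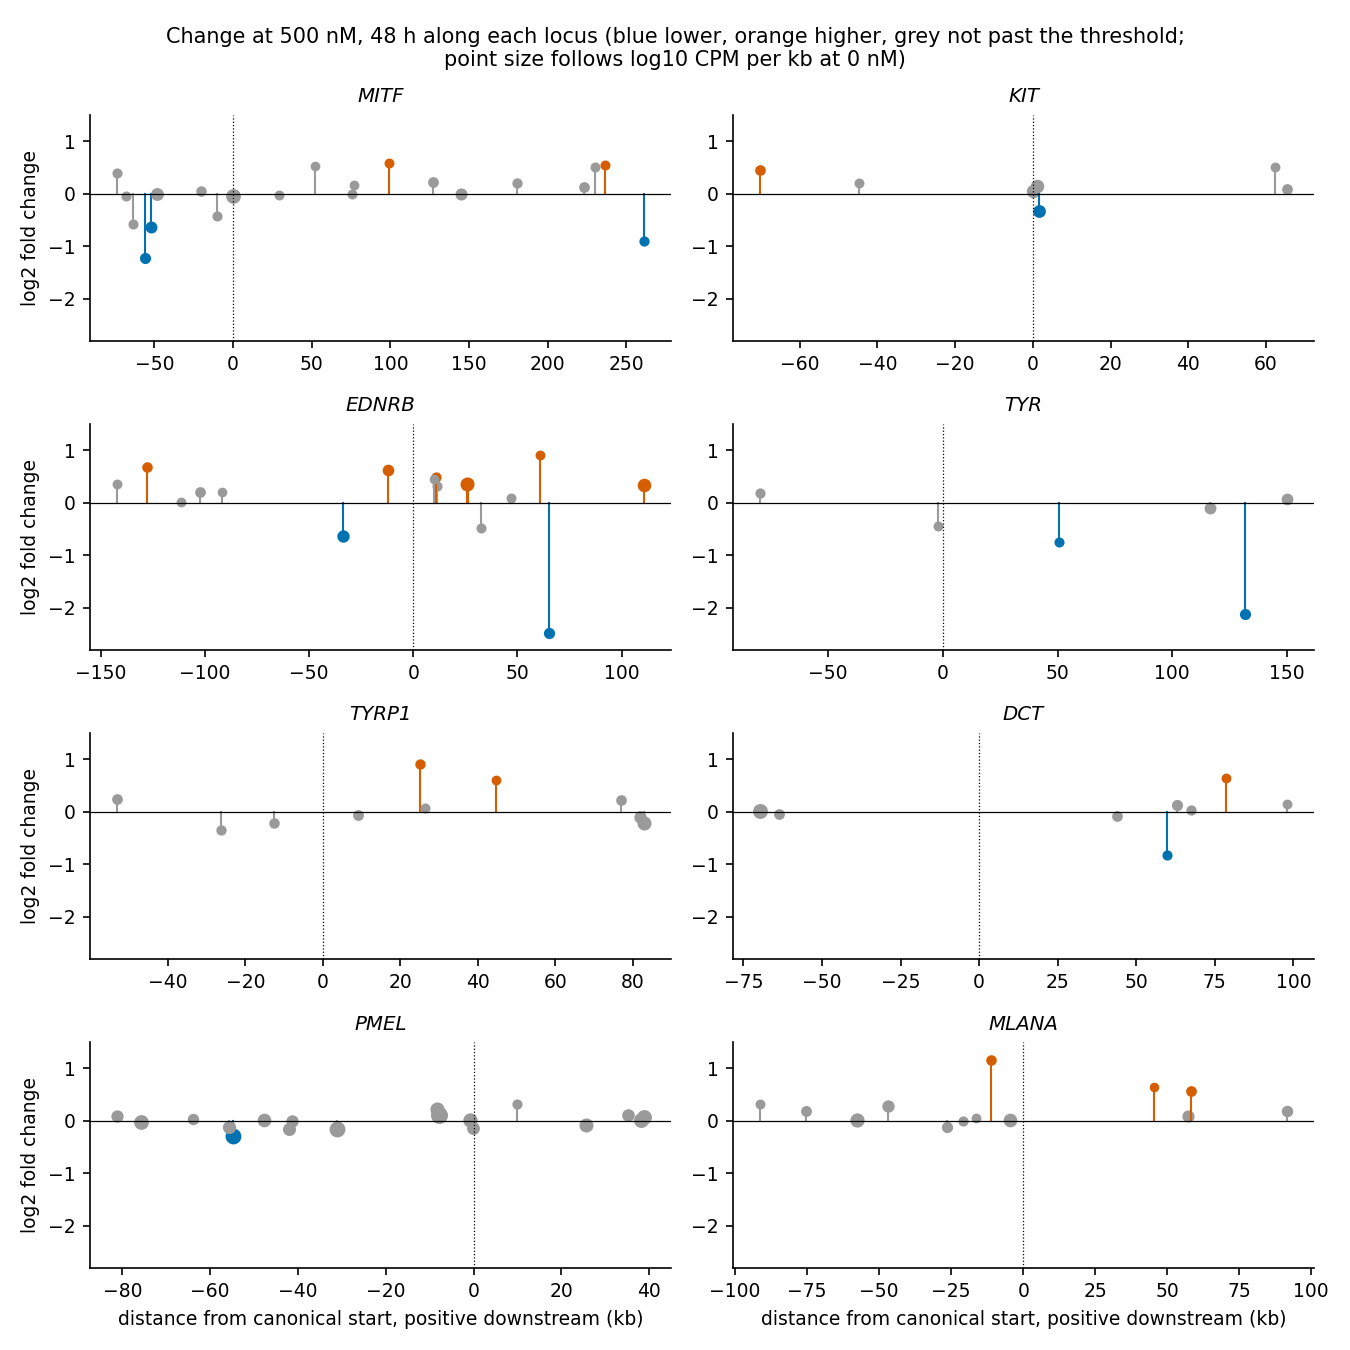
Log2 fold change at 500 against 0 nM dTAGV-1, 48 h (y axis), by distance from the canonical start site in kb (x axis) for the 8 loci, with point size following the level per kb at 0 nM. The REs at or next to the starts of MITF and KIT lie near 0 except KIT +1.6 kb (−0.33), and the 2 longest lines, at EDNRB +65.0 kb and TYR +131.9 kb, stand far downstream of the start.

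Levels were low at most of these REs. Per kb of RE length, the members had a median of 3.44 CPM at 0 nM and ran from 1.14 to 209.6, against a median of 4.44 for all REs. EDNRB +65.0 kb stood at 4.82 CPM per kb, TYR +131.9 kb at 4.68 and MITF −56.0 kb at 4.63, so the 3 REs with the largest losses were close to the median of all REs before SOX9 was lowered.

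Fewer members passed at the intermediate doses. At 16 nM, 15 members passed, 6 lower and 9 higher, where 16.2% of all REs passed, 9.12% lower and 7.12% higher. At 5 nM, 6 passed, 3 lower and 3 higher, against 5.32% of all REs, 4.24% lower and 1.08% higher. The 5 nM sample of replicate R6 of S9CC47 stood apart at MITF −0.1 kb, with 37.8 CPM against 15.6 to 25.2 in the others. Without that replicate 9 members passed at 5 nM, the same 6 among them, and 17338 instead of 8052 of all REs. Of the 26 REs called at 500 nM, 13 were among the 15 at 16 nM, and all 6 of those at 5 nM were. These comparisons share the 0 nM samples.

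The 6 that passed at 5 nM were EDNRB +65.0 kb, EDNRB −33.8 kb and TYR +131.9 kb, which were lower, and EDNRB +111.0 kb, EDNRB +25.6 kb and TYRP1 +25.1 kb, which were higher. At 16 nM the 2 that had not passed at 500 nM were MITF −63.6 kb (−0.63, SE 0.21, adjusted p = 0.049) and KIT +62.4 kb (0.72, SE 0.20, adjusted p = 0.014). With clone and differentiation as a replicate block, 24 members instead of 15 passed at 16 nM, and 39497 instead of 24604 of all REs. Among the 24 were KIT 0.0 kb at −0.22 (SE 0.07, adjusted p = 0.02) and MITF +0.4 kb at −0.27 (SE 0.10, adjusted p = 0.041).

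At 1.6 nM, 0 members passed in edgeR, 8 had an unadjusted p under 0.05, and 0.0383% of all REs passed. DESeq2 called 1 there, and the replicate block called 2, EDNRB +65.0 kb at −0.83 (SE 0.12, adjusted p = 0.00015) and TYR +131.9 kb at −0.52 (SE 0.11, adjusted p = 0.0098). Of all REs, DESeq2 called 358 at this dose and the replicate block 1558. At 0.5 nM, 0 members passed in edgeR and 0 in DESeq2, 7 had an unadjusted p under 0.05, and 0.0% of all REs passed.

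The steps at which the named REs changed differed widely. From 0 to 500 nM, over the 6 doses in order, the mean of EDNRB +65.0 kb went through 2.42 ± 0.89, 1.79 ± 0.546, 1.35 ± 0.393, 0.539 ± 0.109, 0.454 ± 0.143 and 0.46 ± 0.286 CPM (SD, n = 7 each). It had therefore covered 54.5% of its full change at 1.6 nM and 96.0% at 5 nM. TYR +131.9 kb went through 3.89 ± 1.90, 3.57 ± 1.79, 2.75 ± 1.52, 2.10 ± 1.06, 1.31 ± 0.641 and 0.877 ± 0.367 CPM over the same doses. It had covered 37.9% of its change at 1.6 nM and 59.4% at 5 nM.

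MLANA −11.2 kb moved late, through 1.44 ± 0.839, 1.22 ± 0.928, 1.43 ± 0.805, 1.66 ± 1.16, 2.21 ± 1.07 and 3.33 ± 2.33 CPM. It had covered 11.8% of its change at 5 nM and 40.5% at 16 nM. Over the 26 members that passed at 500 nM, the median share covered was 27.1% at 1.6 nM, 53.0% at 5 nM and 76.3% at 16 nM. Over all 36546 REs that passed, it was 16.3, 44.6 and 72.1%.

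**Figure D3:**
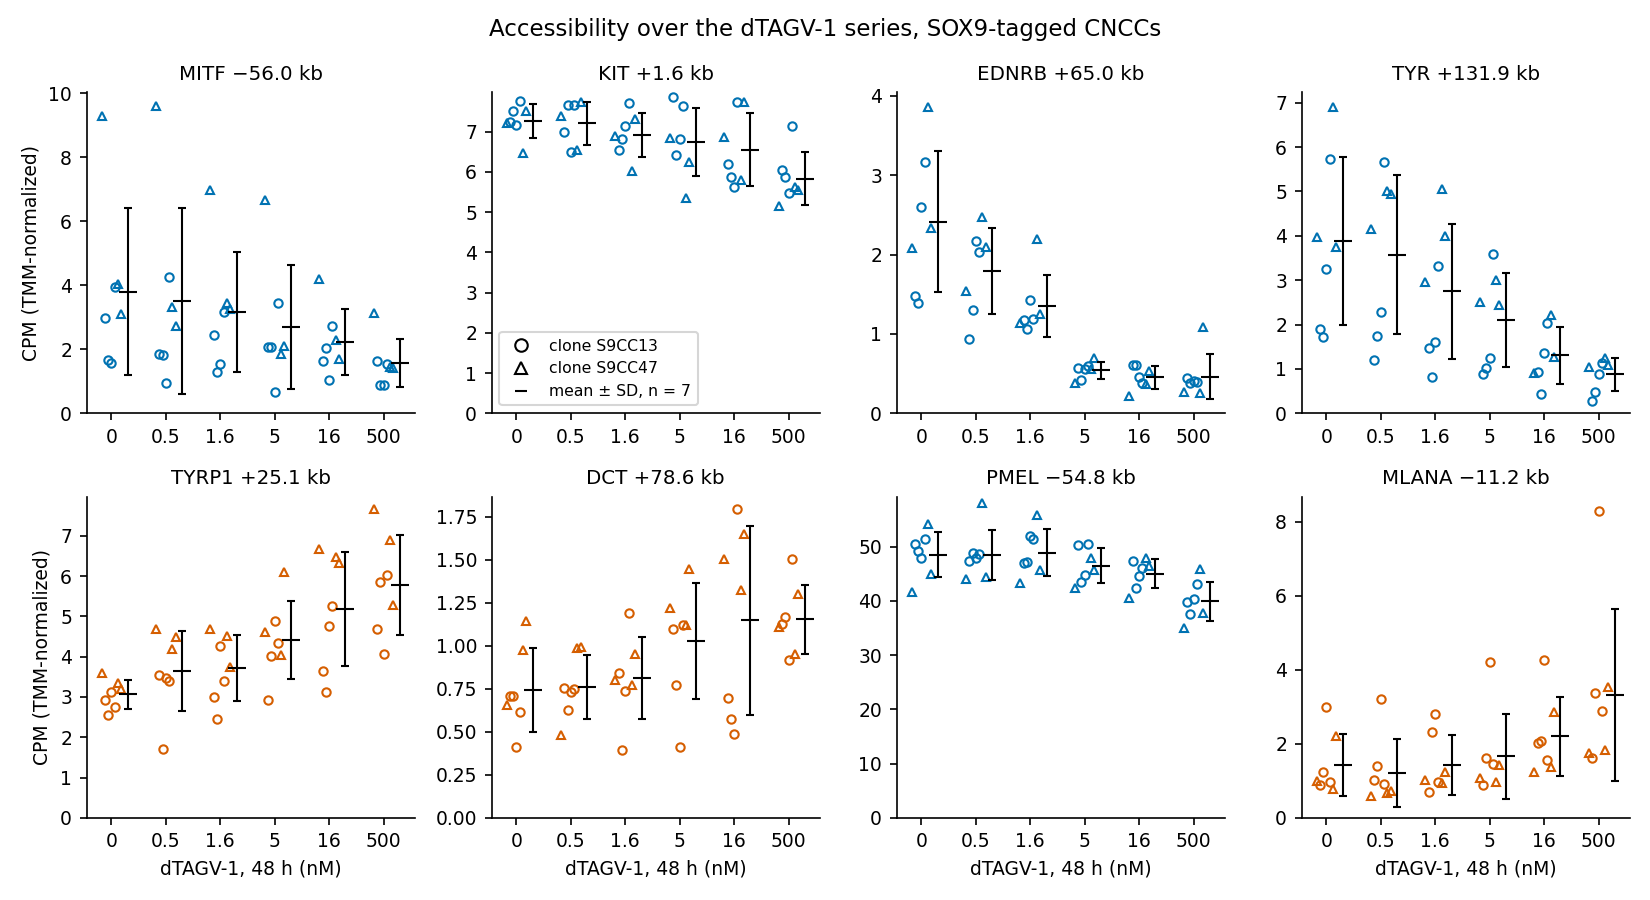
CPM after TMM scaling (y axis) over the dTAGV-1 series at 48 h (x axis, nM, categories) in SOX9-tagged CNCCs, for the RE of each locus with the lowest adjusted p at 500 nM, with circles for clone S9CC13, triangles for S9CC47, and bars for the mean ± SD of 7 samples. Blue panels were lower and orange panels higher at 500 nM: EDNRB +65.0 kb reaches its floor at 5 nM, TYR +131.9 kb falls up to 500 nM, and MLANA −11.2 kb rises mainly between 16 and 500 nM, with 1 S9CC13 sample at 8.29 CPM.

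A Hill curve fitted to each RE gives the ED50, here the SOX9 level, in percent of the untreated level, at the midpoint of the change. A higher ED50 means that the RE responded to a smaller loss of SOX9. Over the 26 REs the median ED50 was 23.7 and the range 3.35 to 56.1, with 15 under 30, 9 from 30 to 40 and 2 over 40. EDNRB +65.0 kb had the highest, at 56.1, and the values without each replicate in turn ran from 54.0 to 57.2. TYR +50.5 kb followed at 45.6, but its values without a replicate ran from 31.4 to 86.2.

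TYR +131.9 kb and EDNRB −33.8 kb had ED50 values of 31.5 and 31.6. MITF −56.0 kb had 19.1, or 37.3 without batch correction. The 10 REs that were lower had a median of 17.2 and the 16 that were higher one of 26.7. The lowest were MITF +99.0 kb at 3.35, EDNRB +61.0 kb at 4.02, DCT +59.7 kb at 4.28 and MLANA −11.2 kb at 4.42. EDNRB +65.0 kb and EDNRB +61.0 kb, 3979 bp apart, thus lay near opposite ends of the range and moved in opposite directions.

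**Figure D4:**
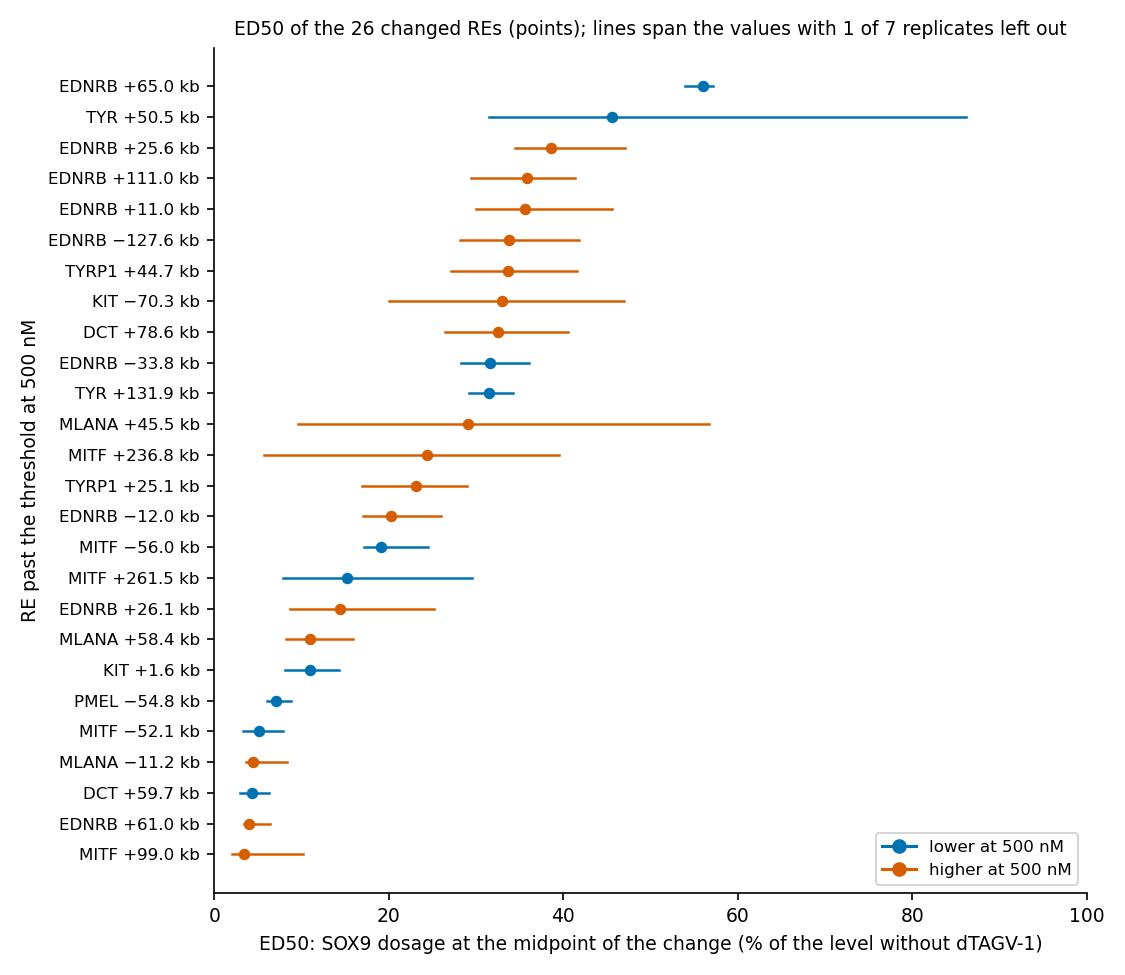
ED50 in percent of the untreated SOX9 level (x axis) of the 26 REs that passed at 500 nM (y axis, sorted), with points for the fit to all 7 replicates and lines from the lowest to the highest value when 1 replicate was left out. EDNRB +65.0 kb is highest at 56.1 with a short line (54.0 to 57.2), and the lines of TYR +50.5 kb and MLANA +45.5 kb are the longest.

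The time course asks which REs had already changed at 3 h, when SOX9 has been lost but fewer later effects have had time to develop. At 3 h in SOX9-tagged cells 8 members passed, 7 lower and 1 higher, where 8.34% of all REs passed, 7.43% lower and 0.912% higher. The shares of members, 7 and 1 of 101, lay near this background, and the median log2 fold change of the members was 0.004 against 0.017 over all REs. DESeq2 called 4 of the members, and the count was 4 or 5 in each fit that left out 1 sample of the vehicle or 3 h groups.

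EDNRB +65.0 kb was at 5.38 and 4.37 CPM in the 2 vehicle samples, 0.69 and 0.54 CPM at 3 h and 0.31 and 0.29 CPM at 24 h. The 3 groups did not overlap, and the change was −3.06 at 3 h (SE 0.22, adjusted p = 1.5e-08) and −4.06 at 24 h (SE 0.24, adjusted p = 7e-10). WT cells had 9.65 and 10.3 CPM with vehicle, 8.2 and 11.1 at 3 h, and 14.2 and 10.3 at 24 h. The WT samples showed no such fall, and the genotype by treatment term was −3.03 at 3 h (SE 0.30, adjusted p = 2.9e-07) and −4.39 at 24 h (SE 0.32, adjusted p = 1.8e-09).

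TYR +131.9 kb was at 7.81 and 2.95 CPM with vehicle, 1.82 and 0.69 at 3 h, and 1.4 and 0.83 at 24 h. Both differentiations fell, from unlike starting levels, by −2.16 at 3 h (SE 0.21, adjusted p = 5.3e-07) and −2.27 at 24 h (SE 0.21, adjusted p = 1.9e-07). In WT cells it stood at 6.92 and 3.59, 6.77 and 3.79, and 7.94 and 3.15 CPM. The genotype by treatment term was −2.20 at 3 h (SE 0.27, adjusted p = 5.6e-06) and −2.33 at 24 h (SE 0.27, adjusted p = 1.5e-06).

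EDNRB −33.8 kb was at 14.02 and 11.87 CPM with vehicle, 5.51 and 5.84 at 3 h, and 5.01 and 5.42 at 24 h. Treated and vehicle samples did not overlap, and the changes were −1.25 (SE 0.14, adjusted p = 2.2e-06) and −1.37 (SE 0.13, adjusted p = 4.6e-07). In WT cells all 6 samples lay between 10.8 and 14.2 CPM, and the genotype by treatment terms were −1.38 (SE 0.19, adjusted p = 2.4e-05) and −1.45 (SE 0.19, adjusted p = 7.9e-06). EDNRB +65.0 kb, TYR +131.9 kb and EDNRB −33.8 kb were called at both times and for both terms in each fit that left out 1 sample and in DESeq2.

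The other 4 that were lower at 3 h had smaller changes. MITF +261.5 kb was at 1.96 and 1.65 CPM with vehicle and 0.933 and 0.906 at 3 h, a change of −1.02 (SE 0.25, adjusted p = 0.013), and MITF −56.0 kb went from 6.17 and 2.13 to 3.84 and 1.34 CPM, by −0.74 (SE 0.19, adjusted p = 0.017). KIT −44.8 kb (chr4:54612915-54613415, intergenic) went from 1.34 and 2.06 to 0.666 and 0.873 CPM, by −1.20 (SE 0.26, adjusted p = 0.0038), and MLANA −26.4 kb changed by −0.56 (SE 0.15, adjusted p = 0.021). KIT −44.8 kb passed in 5 of 6 fits that left out 1 sample and in DESeq2, and the others passed in 2 or 3 of 6 and not in DESeq2.

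KIT −44.8 kb was lower at 3 h and at 24 h (−0.85, SE 0.24, adjusted p = 0.023). At 500 nM for 48 h it changed by 0.20 (SE 0.19, adjusted p = 0.52). By the labels, the SOX9-tagged samples of the time course share clone S9CC13 with part of the dose series. R5 is the only differentiation label found in both sets, and in the dose series it belongs to clone S9CC47. The count table names S9CC47 for the R5 samples of the time course too. The change over time within 1 set of samples was not measured beyond 24 h. PMEL −47.6 kb, in an intron of IKZF4, was the 1 member that was higher at 3 h, by 0.35 (SE 0.10, adjusted p = 0.045), in 2 of 6 fits that left out 1 sample and not in DESeq2. Of the 8 called at 3 h, 5 were among the 26 called at 500 nM for 48 h, while KIT −44.8 kb, MLANA −26.4 kb and PMEL −47.6 kb were not. PMEL −47.6 kb also passed at 24 h.

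At 24 h 16 members passed, 11 lower and 5 higher, against 14.6% of all REs, 9.93% lower and 4.7% higher. Of these, 7 had passed at 3 h, from the same vehicle samples, and 8 were among the 26. TYR +50.5 kb had 1.26 and 1.19 CPM with vehicle, 0.733 and 0.856 at 3 h, and 0.48 and 0.313 at 24 h, when it passed, at −1.67 (SE 0.31, adjusted p = 0.00083). TYRP1 +25.1 kb, at 0.65 (SE 0.17, adjusted p = 0.012), and MLANA −11.2 kb, at 0.98 (SE 0.21, adjusted p = 0.0024), were higher, as they were at 48 h. DESeq2 called 7 members at 24 h, and 6 passed without the vehicle sample of differentiation R4, 8 without that of R5 and 10 without the R4 sample of 24 h.

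The genotype by treatment term, which tests whether SOX9-tagged cells responded differently from WT cells, was past the threshold for 4 members at 3 h, all lower, against 5.2% of all REs, 5.13% lower. At 24 h it was past it for 7 members, all lower, against 6.73%, 6.28% lower. Beside the 3 named above, KIT −44.8 kb passed at 3 h (−1.29, SE 0.36, adjusted p = 0.035), but not in DESeq2 (adjusted p = 0.17) and in 5 of 12 fits that left out 1 sample. At 24 h TYR +50.5 kb passed at −1.85 (SE 0.39, adjusted p = 0.0026), MITF −56.0 kb at −0.99 (SE 0.24, adjusted p = 0.0095), MITF −63.6 kb at −1.11 (SE 0.33, adjusted p = 0.043) and MITF +261.5 kb at −1.13 (SE 0.34, adjusted p = 0.049). Of these, TYR +50.5 kb passed in 12 of 12 such fits, MITF −56.0 kb in 8, and both in DESeq2, while MITF −63.6 kb passed in 3 and MITF +261.5 kb in 4, with DESeq2 adjusted p of 0.19 and 0.18.

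**Figure D5:**
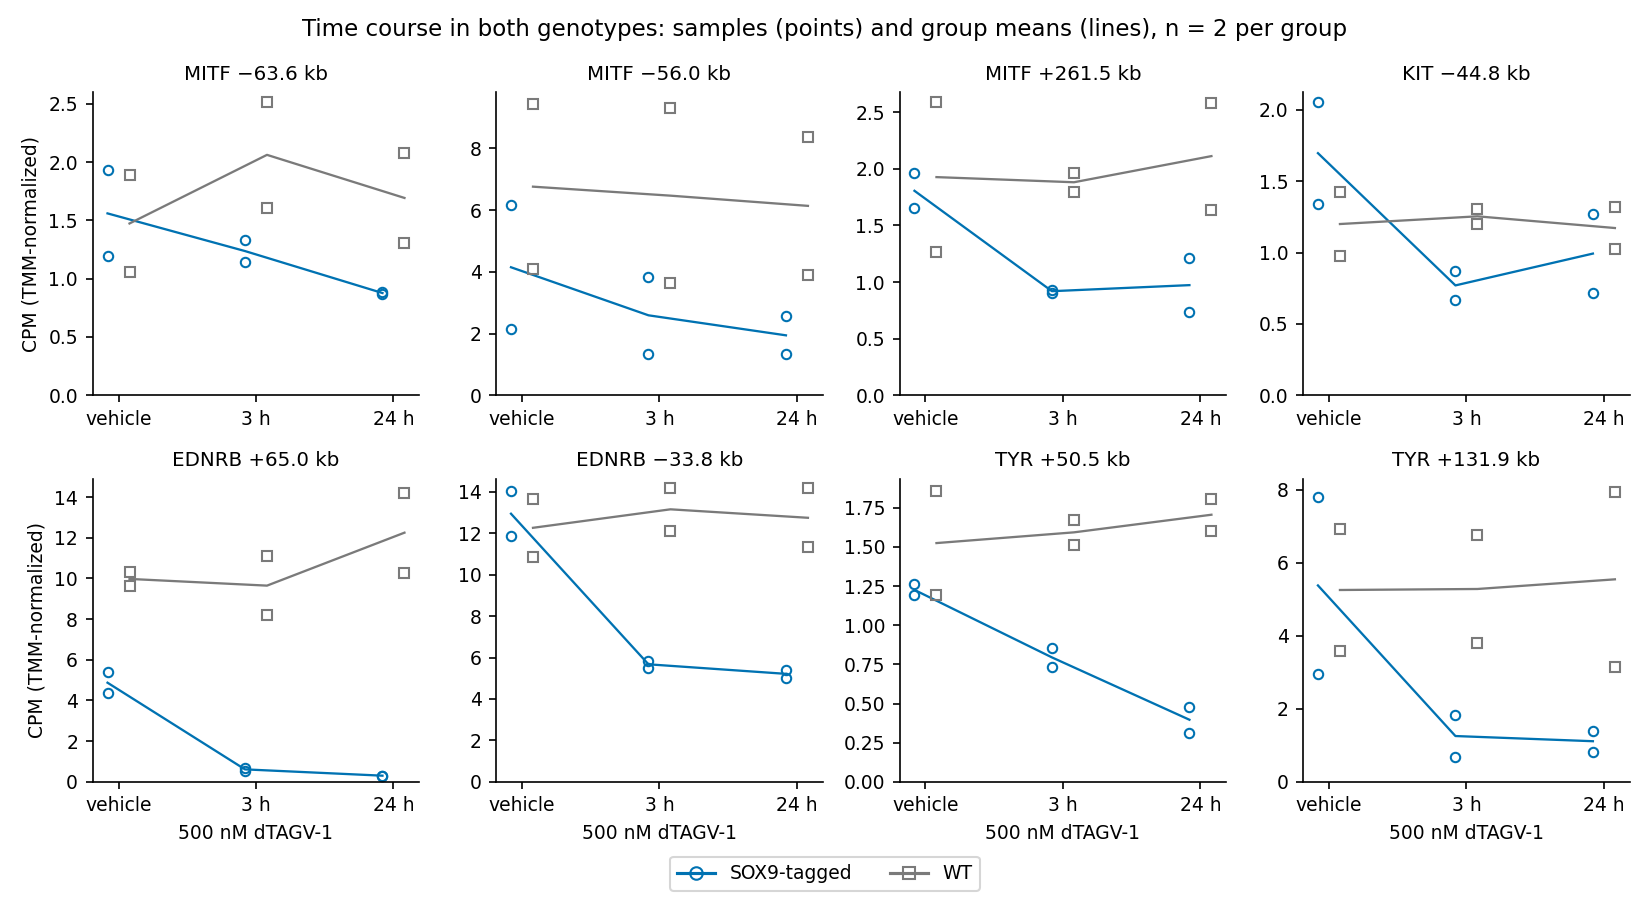
CPM after TMM scaling (y axis) with vehicle and after 3 h and 24 h of 500 nM dTAGV-1 (x axis, categories) in SOX9-tagged (blue circles) and WT (grey squares) CNCCs, for the 8 REs whose response differed between genotypes at 3 h or 24 h, with points for the 2 samples of each group and lines through their means. The SOX9-tagged lines of EDNRB +65.0 kb, TYR +131.9 kb and EDNRB −33.8 kb drop at 3 h and stay low at 24 h, that of TYR +50.5 kb keeps falling to 24 h, and the WT lines show no such drop.

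In WT cells alone 0 members passed in edgeR at 48 h, 3 h or 24 h, where 0.303%, 0.0% and 0.0% of all REs passed. The members with an unadjusted p under 0.05 numbered 5, 4 and 3, and DESeq2 called 0 in each. At 48 h EDNRB +65.0 kb was at 1.9 and 2.82 CPM in untreated WT cells and 2.59 and 3.36 CPM at 500 nM, and TYR +131.9 kb was at 2.27 and 5.59 CPM untreated and 3.44 and 7.27 CPM at 500 nM. Both were higher in each treated WT sample than in its untreated partner, with adjusted p of 0.55 and 0.11, which is opposite in sign to SOX9-tagged cells.

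Over the 42 SOX9-tagged samples at 48 h, the log2 CPM of each RE was taken with the mean of each differentiation batch removed. The 5 REs elsewhere in the genome that followed TYR +131.9 kb most closely by these values each had a Pearson r of 0.96. The samples share dose, clone and differentiation, and the removal takes out only mean levels. This r therefore describes the common course and carries no test. The coding genes nearest to these REs were GAP43 (72912 bp), GMPR (7830 bp), BCAS3 (20284 bp), GJC3 (14357 bp) and PCP4 (43728 bp), and all 5 REs were lower at 500 nM, by −1.14 to −4.71 on the log2 scale.

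The other genes of the pathway, from a list of transcription factors, MITF relatives, ligands, receptors, pigment genes and survival genes, held 668 further REs within the same distance. At 500 nM 110 of these were lower and 48 higher (23.65% in all, median log2 fold change −0.016), near the share over all REs, and at 3 h 62 were lower and 6 higher (10.18% in all, against 8.34% of all REs). The background for the classes at 500 nM is the 13.9% lower and 10.2% higher of all REs. Among the transcription factors 44 of 247 REs were lower and 11 higher, and among the MITF relatives TFE3, TFEB and TFEC 17 of 74 were lower and 4 higher. Among the ligands 12 of 87 were lower and 14 higher, and among receptors 5 of 51 each way. Pigment and melanosome genes held 30 lower and 13 higher of 181.

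At the ligands of the receptors above, REs went both ways, with 1 lower and 4 higher of 12 at KITLG and 5 lower and 3 higher of 26 at EDN3. The RE with the lowest adjusted p at KITLG, which encodes the KIT ligand, went from 0.735 ± 0.34 to 1.85 ± 0.907 CPM (SD, n = 7 each), a change of 1.31 (SE 0.17, adjusted p = 2.4e-06). That at EDN3, the ligand of EDNRB, went from 4.87 ± 1.26 to 1.89 ± 0.421 CPM, a change of −1.37 (SE 0.12, adjusted p = 3.6e-09). Among the pigment and melanosome genes, the corresponding RE changed most at OCA2, a melanosome transporter with 3 lower and 0 higher of 18 REs. It went from 3.98 ± 2.21 to 0.703 ± 0.334 CPM, a change of −2.52 (SE 0.20, adjusted p = 4.1e-10). At SLC45A2 the corresponding RE rose by 0.86 (SE 0.11, adjusted p = 7.3e-07) and at RAB38 by 0.61 (SE 0.21, adjusted p = 0.035). At the other genes of this class it was lower, without passing at SLC24A5.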

How the data were processed

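ATAC-seq was analysed in 58 samples of H9-derived CNCCs. Per the labels, the study's methods and the submitters' processing notes, the authors trimmed and aligned reads to hg38 (Bowtie2 2.4.1), removed duplicates (SAMtools 1.10), called peaks (MACS2 2.2.7.1), merged summits seen in 3 or more differentiations or lines into REs (bedtools) and counted reads in them with a tool not given in the sources used here. The deposited values are these raw counts, one table for all samples. Counts within REs give no share of fragments outside them, and REs called over all samples can be weak in any 1 group.

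From the counts, edgeR 4.0.16 (R 4.3.3) fitted TMM-scaled quasi-likelihood models over all 151457 REs without a filter. Dose fits held 14 samples (500 nM or another dose against 0 nM) with differentiation batch as covariate, time-course fits held 6, and the genotype by treatment fit held all 12 with genotype by batch blocks. Adjusted p-values are Benjamini-Hochberg over all REs with a threshold of 0.05, and standard errors are the log2 fold change over the root of F. CPM values are TMM-scaled over all samples. ED50 comes from a Hill curve of 2 parameters fitted to batch-corrected CPM. The procedure was tested on simulated counts for the 500 nM comparison. These held no batch or clone effects and placed changes only at REs with higher counts. The test therefore does not show how the procedure performs at weak REs or under such effects.

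Samples were grouped by title. Samples of the same clone and differentiation deviated together (mean r 0.61 to 0.73 at the 5 doses, lowest 0.22, against −0.10 to −0.12 for other pairs), so the numbers pair the samples. The study's design uses batch, and the clone by differentiation block is the alternative. No 2 samples of the same group agreed within sampling noise (134 pairs). Pairs from different groups were not compared in this way. The values of single glial markers are not reported here.

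The members and lists were chosen with earlier results of these data known. The named REs are those at a member's start (at most 2), the RE with the highest CPM, and the lower and higher RE with the lowest adjusted p at 500 nM for each gene, the 10 largest changes at 500 nM that went the same way in 7 of 7 replicates, and the 5 largest at 3 h. Others are named where they complete a small count or a flagged result. Alternatives were DESeq2 1.42.0, RLE scaling, a filter on low counts (minimum 10), other blocks, all 42 samples in 1 fit, 50 kb in place of 100 kb, REs at starts of other coding genes left out, and each replicate left out.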

Additional observations from a re-analysis of the deposited data

Results flagged for a closer look

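Among the 29 REs named by the fixed rule, 7 of 58 groups of 7 samples (0 and 500 nM) held a sample far from the others, where chance gives about 1 in 20. MITF −56.0 kb stood at 9.28 CPM in replicate R8 of S9CC47 at 0 nM, where the others ran from 1.58 to 4.02, and at 3.13 CPM in the same replicate at 500 nM, where the others ran from 0.885 to 1.62. Without that replicate its log2 fold change was −1.13 instead of −1.22.

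Replicate R10 of S9CC13 stood apart at 500 nM in 3 REs. MLANA −11.2 kb was at 8.29 CPM there (others 1.62 to 3.55), and without it the change was 1.11 instead of 1.16. KIT 0.0 kb was at 15.4 CPM (others 7.68 to 10.9), with a change of 0.07 without it instead of 0.04. KIT −44.8 kb was at 0.242 CPM (others 0.946 to 1.45), with a change of 0.33 without it instead of 0.20.

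At 500 nM EDNRB +65.0 kb was at 1.09 CPM in replicate R5 of S9CC47 (others 0.25 to 0.45), and without it the change was −2.79. MITF +99.0 kb was at 2.15 CPM in replicate R14 of S9CC13 (others 0.848 to 1.38), and without it the change was 0.50 and no longer passed the threshold.

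The response to dTAGV-1 differed between SOX9-tagged and WT cells, by the genotype by treatment term, at 4 REs at 3 h: EDNRB +65.0 kb (−3.03), TYR +131.9 kb (−2.20), EDNRB −33.8 kb (−1.38) and KIT −44.8 kb (−1.29). At 24 h it differed at 7: EDNRB +65.0 kb (−4.39), TYR +131.9 kb (−2.33), TYR +50.5 kb (−1.85), EDNRB −33.8 kb (−1.45), MITF +261.5 kb (−1.13), MITF −63.6 kb (−1.11) and MITF −56.0 kb (−0.99). Under RLE scaling MITF +261.5 kb and MITF −63.6 kb did not pass, with adjusted p of 0.058 and 0.051, and in DESeq2 they did not pass either, nor did KIT −44.8 kb at 3 h (adjusted p = 0.17), which passed in 5 of 12 fits that left out 1 sample.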

How the results depend on the processing

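The count at 500 nM was 26, and 11 with no replicate block (no batch term). Leaving out 1 replicate gave 19 to 31. At 16 nM it was 15, and 24 with the replicate block, where 39497 instead of 24604 of all REs passed. The 16 nM count was 4 with no block and 11 to 23 without a replicate, the 23 without R6 of S9CC47. At 5 nM it was 6, 3 under RLE scaling, 1 with no block and 2 to 9 without a replicate (2 without R10 of S9CC13 or R5 of S9CC47, 3 without R8 of S9CC47, 9 without R6 of S9CC47). At 1.6 nM it was 0, 1 by DESeq2, 2 with the replicate block and 0 to 2 without a replicate. At 3 h it was 8, 4 by DESeq2, 0 with no block and 4 to 8 without a sample. At 24 h it was 16, 7 by DESeq2, 1 with no block and 6 to 18 without a sample. In WT cells at 3 h it was 0, and 0 to 1 without a sample. The genotype by treatment count at 3 h was 4, 1 with no block and 3 to 5 without a sample. At 24 h it was 7, 1 with no block, 4 within 50 kb and 4 to 7 without a sample (4 without the R4 vehicle sample of SOX9-tagged or the R5 vehicle sample of WT cells). The causes of these shifts were not tested. Fits without a replicate or sample hold fewer samples, and the count within 50 kb covers fewer REs. Pairing changed no other count by over 1.5 times. Of the other counts, 140 stayed within 1.5 times, and so did all counts with the filter on low counts or without starts of other coding genes. No result reversed. For the log2 fold changes of named REs, 348 values kept their call, 23 lost it and 6 gained it. Of 136 ED50 values 4 moved beyond the replicate spread: MITF −56.0 kb without batch correction (37.3), and, without a replicate, MITF +99.0 kb (10.1), EDNRB +61.0 kb (6.37) and MLANA −11.2 kb (8.30). Members with few counts, and groups of 2 samples, limit what small changes could be detected.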
